A study of Mus musculus with 12 samples.

Results

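The mitochondrial carriers are the products of the Slc25 genes together with the uncoupling proteins Ucp1, Ucp2 and Ucp3, and their hepatic transcripts were compared between F1 male mice of DCHP-exposed and of control sires. Members were taken by gene symbol alone, as every Slc25a gene with a number plus the 3 Ucp genes, which gave 49 of the 21683 genes in the table, of which 41 had enough counts to be tested. The paternal DCHP group (6 livers) came from wild-type sires gavaged with dicyclohexyl phthalate (DCHP), a phthalate plasticizer, for 4 weeks starting at 8 weeks of age, and the paternal control group (6 livers) from wild-type sires given corn oil vehicle over the same period. The strain was C57BL/6J and the dams were unexposed. The offspring of both groups were themselves not dosed and were placed on a high-fat diet at 3 weeks of age and kept on it for 9 weeks, so no liver on normal chow entered the comparison. The labels do not give the sire or litter of single animals, so p-values measure the spread between these livers only, and littermates may be among them.

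Mitochondrial carriers are small proteins of the inner mitochondrial membrane that exchange metabolites, nucleotides, cofactors and metals between the cytosol and the matrix. They are encoded in the nucleus, made in the cytosol without a cleaved presequence in most cases, and inserted by the TIM22 import route. In liver they connect the matrix to the urea cycle, to the export of citrate for fatty acid synthesis, to gluconeogenesis and to heme synthesis, and uncoupling proteins are known for proton leak in brown fat.

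Values are CPM, counts normalised to library size after TMM scaling, with the tested genes compared by the edgeR quasi-likelihood test and Benjamini-Hochberg adjustment over all 12459 tested genes, which is the adjusted p or FDR in every sentence that prints one. A gene is said to have risen or fallen where its FDR was under 0.1, and is called differentially expressed where its fold change was also above 1.5, the thresholds of the study. Totals of estimated counts lay between 23794728 and 30445338 per library and did not separate the groups (exact two-sided permutation p = 0.827). The hepatocyte markers summed to a median of 79376 CPM with paternal DCHP and 77613 CPM in controls. Of these 10 markers, 7 had a positive and 3 a negative log2 fold change. None rose and 1 fell at an FDR under 0.1, where 2.29% of all tested genes rose and 1.56% fell. DCHP 5 stood apart in the share of mitochondrially encoded transcripts, 8.03% against 5.22 to 6.98% elsewhere, and was the lowest of all 12 livers for 11 of the 41 tested carriers. It also had the highest sums of Kupffer cell markers (787 CPM, against a DCHP median of 378 CPM and a control maximum of 388 CPM) and of erythroid markers (401 CPM, against a control maximum of 247 CPM). DCHP 1 and DCHP 4 stood apart in stress genes in earlier results of these data, so results are also given without them. In bulk liver, fewer cells of a type and less RNA per cell cannot be told apart.

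The upstream windows of 2 members are printed because both genes passed the test below and each has a single RefSeq start in the sequence table. Each run is the 250 bases before the start on the gene's own strand, from RefSeq on GRCm38.p6, with every match to GGGCGG (the GC box bound by Sp1) or CCAAT (the CCAAT box bound by NF-Y) on either strand in capitals. The first belongs to mitoferrin 2 at chr19:43674882-43675131 on the minus strand, and the second to uncoupling protein 2 at chr7:100493108-100493357 on the plus strand.
Slc25a28: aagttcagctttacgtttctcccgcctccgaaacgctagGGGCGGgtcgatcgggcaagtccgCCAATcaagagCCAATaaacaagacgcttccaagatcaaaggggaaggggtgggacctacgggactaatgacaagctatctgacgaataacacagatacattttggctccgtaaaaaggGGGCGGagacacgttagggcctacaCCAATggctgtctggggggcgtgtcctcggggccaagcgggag
Ucp2: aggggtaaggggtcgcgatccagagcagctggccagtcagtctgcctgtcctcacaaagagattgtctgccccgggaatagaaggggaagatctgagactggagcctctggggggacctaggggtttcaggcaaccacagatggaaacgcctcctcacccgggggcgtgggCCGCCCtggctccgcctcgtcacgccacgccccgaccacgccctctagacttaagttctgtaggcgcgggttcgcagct
The Slc25a28 window held 2 matches to GGGCGG and 3 to CCAAT, and the Ucp2 window held 1 and 0. Of the 49 members, 39 had an entry, and Slc25a37 was not among them. The 39 gave 49 windows because some genes have several starts, and such genes count more than once. GGGCGG was found in 33 of the 49 windows (67.3%), against 32.7% of all 32851 windows of that length, and CCAAT in 42.9% against 33.8%. The E-box CACGTG was in 16.3% against 6.02%, the GATA site AGATAA in 4.08% against 9.99%, and TATAAA in 4.08% against 12.4%. The canonical NRF1 site was in 4.08% of member windows and 3.74% of all windows. No motif searched contains another, and a match is a description of the sequence, not of binding. The windows of all genes were not matched to those of the members by expression in liver.

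Liver expressed the carriers at very unequal levels. Per kilobase of exon, the highest mean level over all livers was that of Slc25a47, a carrier enriched in hepatocytes, at 242 CPM per kb, followed by Slc25a5, the adenine nucleotide translocase of proliferating and epithelial tissues, at 232 CPM per kb. Next were Slc25a39, needed for mitochondrial glutathione uptake, at 127 CPM per kb, the citrate carrier Slc25a1 at 94.3 CPM per kb and the dicarboxylate carrier Slc25a10 at 84.1 CPM per kb. These 5 genes made up 58.5% of the summed level per kb of all members, and 20 members exceeded 10 CPM per kb. The lowest tested member was Slc25a27, a brain-enriched relative of the uncoupling proteins, at 0.27 CPM per kb. Summed over all members, the level was 4718 ± 306 CPM with paternal DCHP and 4531 ± 223 CPM in controls (SD, n = 6 each), with an exact two-sided permutation p of 0.232.

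**Figure D1:**
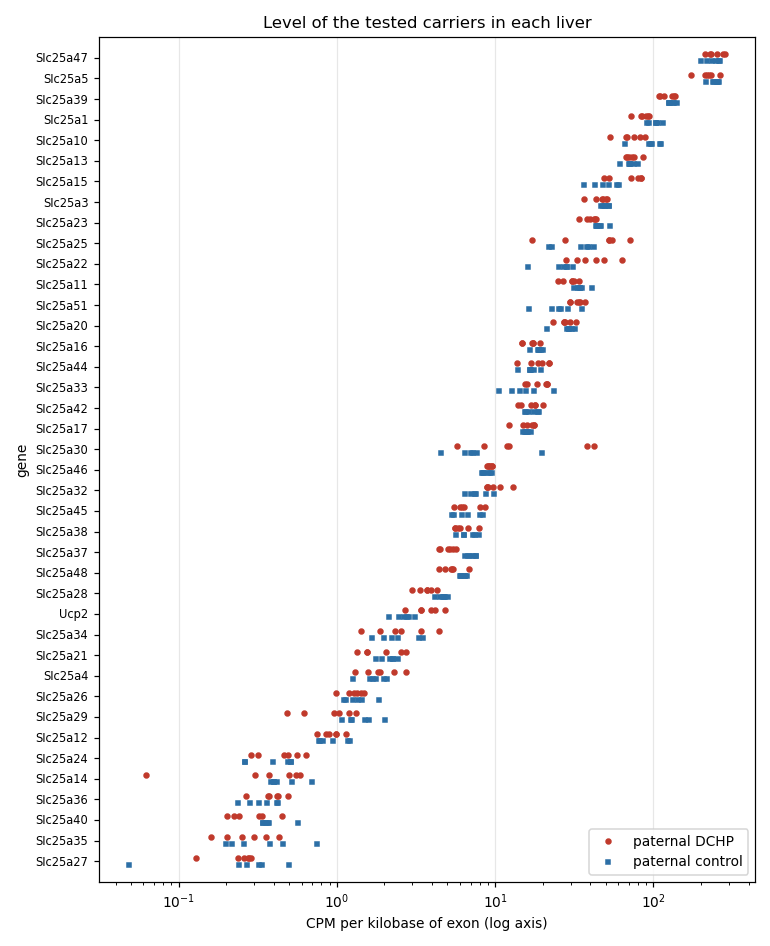
Level of 40 of the 41 tested carriers in each of the 12 livers, in CPM per kilobase of exon on a log axis, ordered by the mean over all livers (red circles, paternal DCHP; blue squares, paternal control). Levels run from Slc25a47 at 242 CPM per kb down to Slc25a27 at 0.27 CPM per kb, and the points of the groups overlap for every carrier drawn but Slc25a37.

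The 8 members removed for low counts included the brown fat uncoupling protein Ucp1, with 0 estimated counts summed over the DCHP livers and 1 over the control livers. Ucp3, the uncoupling protein of skeletal muscle, had 14 and 7.09 counts, and the second mitochondrial glutamate carrier Slc25a18 had 15 and 16. Slc25a31, the testis adenine nucleotide translocase, had 4 counts over the DCHP livers and 17 over the control livers. Slc25a43 had 8.30 and 8.67 counts and Slc25a53 had 12.1 and 18.6, both with no settled substrate. Slc25a41, an ATP-Mg/phosphate carrier, and Slc25a54 had no count in any liver, which allows up to 3 counts per library, or 0.0985 to 0.126 CPM before TMM scaling. Of the 7 skeletal muscle markers, Myh2 and Myh4 were also at 0 in every liver, while 5 had a higher mean with paternal DCHP. The 7 summed to 0.284 to 0.917 CPM in DCHP livers and 0.234 to 0.573 CPM in control livers.

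One carrier, the glutamate carrier Slc25a22, was called differentially expressed, which is 1 of 41 tested members (2.44%) against 1.28% of all tested genes (0.963% higher and 0.313% lower). Without the fold threshold, 4 of 41 members (9.76%) passed an FDR of 0.1, against 3.84% of all tested genes. Slc25a22 and Ucp2 rose, where 2.29% of all tested genes did, and the mitoferrins Slc25a37 and Slc25a28 fell, where 1.56% did. At an unadjusted p under 0.05 there were 14 members, 6 higher and 8 lower, against 18.9% of all tested genes in either direction (10.6% higher and 8.34% lower). The median log2 fold change, DCHP over control, was -0.03 over the 41 members and 0.01 over all tested genes, and 18 members had a positive value (43.9%, against 51.5% of all genes). Groups did not overlap for 1 member, Slc25a37, where 2.14% of all tested genes had groups that did not overlap (0.907% higher and 1.24% lower). The counts are small, and the members at an FDR under 0.1 numbered between 1 and 6 when single livers were left out. The family was also chosen with earlier results of these data known, so these shares are a description only.

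**Figure D2:**
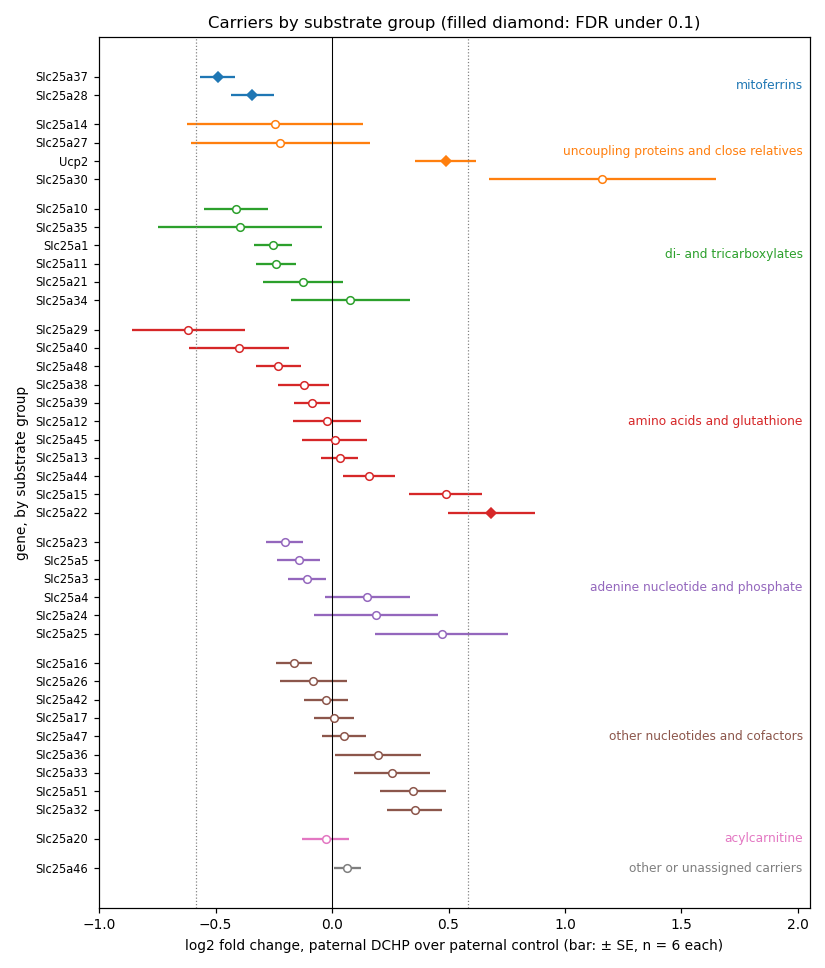
Log2 fold change of paternal DCHP over paternal control for 40 of the 41 tested carriers, grouped by substrate (points, edgeR estimate from 6 livers each; bars, ± SE; filled diamonds, FDR under 0.1; dotted lines, a 1.5-fold change). Both mitoferrins lie left of 0 at -0.49 and -0.34, Ucp2 and Slc25a22 lie right of it at 0.49 and 0.68, and Slc25a30 at 1.16 has the longest bar of the genes to the right.

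The mitoferrins bring iron into the matrix, where it enters heme and iron-sulfur clusters, and both fell with paternal DCHP. Slc25a37 encodes mitoferrin 1, best known from red cell precursors (ENSMUSG00000034248.7, mm10 chr14:69241848-69285112, minus strand). It had a low of 26.8, a median of 30.7 and a high of 34.2 CPM in DCHP livers, against 38.7, 42.7 and 45.8 CPM in control livers. All 6 DCHP livers lay below every control liver. The log2 fold change was -0.49 ± 0.08 (SE, n = 6 each, edgeR FDR = 0.0212), or 0.712-fold, which does not reach the 1.5-fold threshold. It stayed at an FDR under 0.1 in all 22 alternative fits, with log2 fold changes between -0.56 and -0.46 and a highest FDR of 0.0719, and without DCHP 5 it was -0.46 (FDR = 0.0457).

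Slc25a28 encodes mitoferrin 2, the form of most tissues outside the red cell lineage (ENSMUSG00000040414.8, mm10 chr19:43663801-43674881, minus strand), whose upstream sequence is printed above. Levels ranged around a median of 13.9 CPM, from 11.2 to 16.2 CPM, in DCHP livers, against a median of 17.6 CPM and a range of 15.7 to 18.9 CPM in control livers. The groups overlapped by a single liver, DCHP 6, while the other 5 lay below the lowest control. The log2 fold change was -0.34 ± 0.09 (SE, n = 6 each, edgeR FDR = 0.0855). Its sign was the same in all 22 alternative fits, but its FDR was under 0.1 in 10 of them, was 0.131 without DCHP 1 and DCHP 4, and reached 0.198 at most. Within a liver the log2 ratio per kb of Slc25a37 to Slc25a28 averaged 0.46 ± 0.21 with paternal DCHP and 0.60 ± 0.12 in controls (SD, n = 6 each), ranges that overlapped widely. Slc25a37 shares exonic bases on the opposite strand with Gm31748 (381 bases) and Gm27223 (92 bases), neither of which is in the table, and the strand setting of the counting is not known.

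The genes that use mitochondrial iron, 19 enzymes and assembly factors of heme and iron-sulfur cluster synthesis, had negative log2 fold changes in 17 cases, where 6041 of all 12459 tested genes did, with a median of -0.21 against 0.01 over all genes. None was called with the fold threshold, and 2 of the 19 fell at an FDR under 0.1, where 1.56% of all tested genes fell. Without DCHP 5 the median of the 19 was closer to 0, at -0.11 with 16 negative, against 0.01 over all genes. Alad, the second enzyme of heme synthesis, averaged 83.6 ± 14.8 CPM in DCHP livers and 119 ± 14.8 CPM in control livers (SD, n = 6 each), a log2 fold change of -0.50 ± 0.12 (SE, edgeR FDR = 0.0661). Urod, the fifth enzyme of that pathway, averaged 55.5 ± 3.87 and 65.9 ± 3.83 CPM, a log2 fold change of -0.25 ± 0.07 (edgeR FDR = 0.0855), and was named after its value was seen. The FDR of Alad was under 0.1 in 16 of 22 alternative fits and 0.143 at most, and that of Urod in 10 of 22 and 0.216 at most. In both genes the groups did not overlap, where 1.24% of all genes were lower without overlap. The first and last enzymes of the pathway did not pass, with log2 fold changes of -0.36 for Alas1 (edgeR FDR = 0.349) and -0.04 for Fech (edgeR FDR = 0.783). The erythroid markers, 11 of 12 in the table with Epb42 at 0, had mostly higher means. They summed to between 156 and 401 CPM in DCHP livers and between 164 and 247 CPM in control livers, and 8 of the 11 had a higher mean with paternal DCHP, and their part in the mitoferrin result was not tested. Only 7 of the 11 had enough counts for the edgeR test, and none of these passed an FDR of 0.1.

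**Figure D3:**
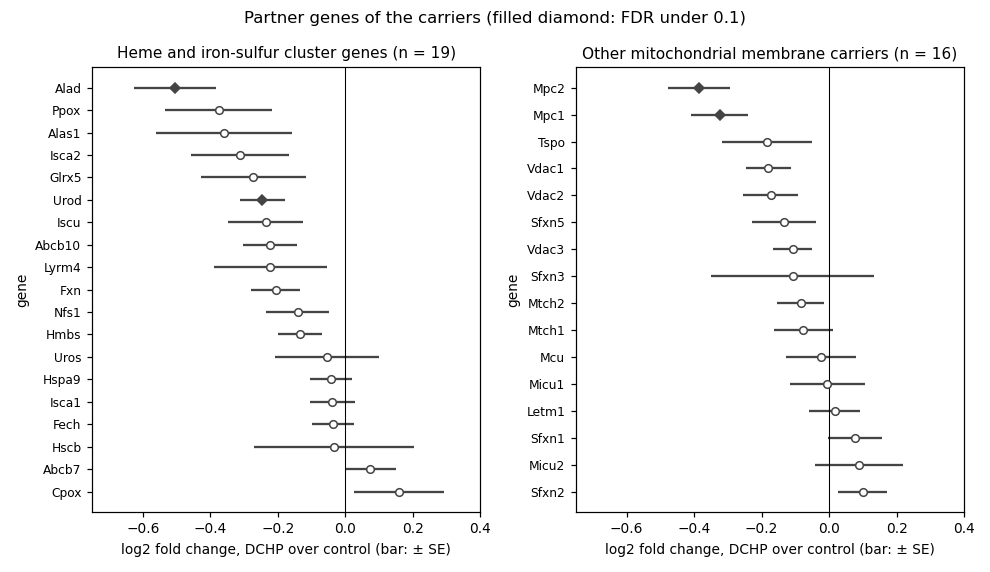
Log2 fold change of paternal DCHP over paternal control for 19 genes of heme and iron-sulfur cluster synthesis (left) and 16 other mitochondrial membrane channels and carriers (right), as edgeR estimates from 6 livers each with bars of ± SE. Filled diamonds are genes at an FDR under 0.1, namely Alad, Urod, Mpc2 and Mpc1, and 17 genes on the left and 12 on the right lie below 0.

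Ucp2 was the uncoupling protein that liver expressed, and it rose with paternal DCHP. It encodes the widely expressed member of that family, known from macrophages and from fatty hepatocytes (ENSMUSG00000033685.13, mm10 chr7:100493337-100502020, plus strand). Its median was 25.8 CPM in DCHP livers, from 18.7 to 33.5 CPM, against 19.0 CPM in control livers, from 14.8 to 21.9 CPM. DCHP 1 was the only DCHP liver within the control range, and the other 5 lay above the highest control. The log2 fold change was 0.49 ± 0.13 (SE, n = 6 each, edgeR FDR = 0.0832), or 1.40-fold. Without DCHP 1 and DCHP 4 it was 0.61 (FDR = 0.0617) and would have been called, while its FDR was under 0.1 in 9 of 22 alternative fits and 0.160 at most. The 14 Kupffer cell and macrophage markers, all of which had a higher mean with paternal DCHP, summed to 283 to 787 CPM in DCHP livers (median 378 CPM) and 236 to 388 CPM in control livers (median 305 CPM). None of these 14 markers passed an FDR of 0.1. Neutrophil markers, of which 10 of 12 had a higher mean and Ly6g was at 0, summed to 3.70 to 8.05 CPM with paternal DCHP and 1.29 to 3.54 CPM in controls. Only 3 of the 12 neutrophil markers had enough counts to be tested, of which 2 were positive and 1 rose. The part of these cells in the Ucp2 difference was not tested. Without DCHP 5, the liver with the most Kupffer cell markers (787 CPM), the Ucp2 log2 fold change was 0.51 (FDR = 0.114). Without DCHP 6, which had the next highest sum of these markers (554 CPM) and the highest Ucp2 level (33.5 CPM), it was 0.42 (FDR = 0.0941). An exon of Ucp2 shares 305 bases with Dnajb13 on the opposite strand. Other carriers with such overlaps include Slc25a46 (383 bases), Slc25a25 (379 bases), Slc25a33 (281 bases) and Slc25a10 (228 bases).

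Slc25a30, a kidney-enriched relative of the uncoupling proteins, varied more between livers than any other tested member. It had a low of 26.2, a median of 54.9 and a high of 192 CPM in DCHP livers, against 20.9, 32.7 and 90.9 CPM in control livers. DCHP 1 and DCHP 4 were at 192 and 173 CPM, above every control, while the other 4 DCHP livers lay within the control range. Control 2 alone set the top of that range, at 90.9 CPM against 20.9 to 35.0 CPM in the other controls. DCHP 2, DCHP 3 and DCHP 5, at 54.3, 38.8 and 55.6 CPM, lay above those other controls. The log2 fold change of 1.16 ± 0.49 did not pass (SE, n = 6 each, edgeR FDR = 0.218). It was 0.12 without DCHP 1 and DCHP 4 (FDR = 0.883) and 1.58 without control 2 (FDR = 0.114). The remaining tested relatives, Slc25a14 and Slc25a27, averaged 0.94 and 0.96 CPM with paternal DCHP and 1.11 and 1.13 CPM in controls, and neither passed.

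The amino acid carriers, 11 of 12 tested, split into 5 positive and 6 negative log2 fold changes with a median of -0.02. Slc25a22 encodes the glutamate carrier, which brings glutamate into the matrix with a proton (ENSMUSG00000019082.18, mm10 chr7:141429744-141437892, minus strand). DCHP livers had a median of 239 CPM between 169 and 377 CPM, against a median of 167 CPM between 97.2 and 186 CPM in control livers. DCHP 6 lay within the control range and the other 5 DCHP livers above it, DCHP 2 being the highest and control 3 the lowest of all. The log2 fold change was 0.68 ± 0.19 (SE, n = 6 each, edgeR FDR = 0.0885), or 1.61-fold. The sign was the same in all 22 alternative fits, with log2 fold changes of 0.53 to 0.78, but the call was lost in 14 of them, with an FDR of 0.164 without DCHP 1 and DCHP 4 and 0.167 at most. Slc25a22 has 3 RefSeq starts, whose windows held 1, 3 and 1 matches to GGGCGG and 0, 1 and 0 to CCAAT.

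Slc25a15, the ornithine carrier that links the cytosolic and matrix steps of the urea cycle, ran in the same direction without passing. It had a low of 276, a median of 428 and a high of 473 CPM in DCHP livers, against 206, 284 and 341 CPM in control livers. DCHP 3 and DCHP 6 lay within the control range and the other 4 above it. The log2 fold change was 0.49 ± 0.16 (SE, n = 6 each, edgeR FDR = 0.129, 0.0503 by DESeq2 and 0.147 by limma-voom). Its FDR was under 0.1 in 3 of 22 alternative fits, and was 0.249 at most, without DCHP 1 and DCHP 4. Of the 9 tested ornithine and urea cycle partners, 5 were positive and none passed. Cps1, the matrix enzyme that opens the urea cycle, averaged 4139 ± 703 CPM in DCHP livers and 3137 ± 551 CPM in control livers, a log2 fold change of 0.40 ± 0.14 (SE, n = 6 each, edgeR FDR = 0.147).

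**Figure D4:**
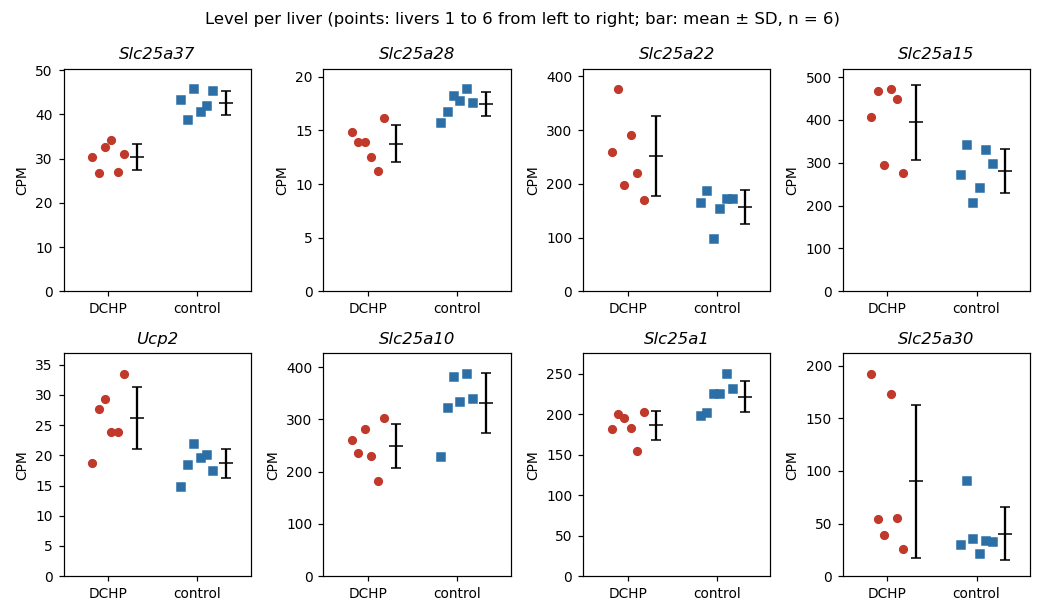
CPM of 8 carriers in each liver (red circles, paternal DCHP livers 1 to 6; blue squares, paternal control livers 1 to 6; black bars, mean ± SD of 6), on linear axes from 0. All DCHP points of Slc25a37 lie below the control points, while the DCHP mean of Slc25a30 is carried by 2 livers at 192 and 173 CPM.

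The aspartate/glutamate carriers of the malate-aspartate shuttle did not differ beyond their spread. Slc25a13, the liver form known as citrin, averaged 277 ± 26.8 CPM in DCHP livers and 271 ± 23.5 CPM in control livers (SD, n = 6 each), and Slc25a12, the form of muscle and brain, averaged 6.88 ± 0.97 and 6.97 ± 1.44 CPM. The log2 ratio per kb of Slc25a12 to Slc25a13 was -6.29 with paternal DCHP and -6.25 in controls. Slc25a39 averaged 339.8 ± 35.6 CPM in DCHP livers and 361 ± 17.3 CPM in control livers, a log2 fold change of -0.09 ± 0.08 (SE, edgeR FDR = 0.557). Its paralog Slc25a40 was far lower at 2.48 ± 0.77 and 3.28 ± 0.73 CPM, with 5 of 6 DCHP livers below the lowest control (edgeR FDR = 0.327). Slc25a29, a carrier of basic amino acids, averaged 2.44 ± 0.85 CPM in DCHP livers and 3.75 ± 0.88 CPM in control livers, a log2 fold change of -0.62 ± 0.24 (SE, edgeR FDR = 0.191). Slc25a48, grouped here by its family branch, averaged 18.1 ± 2.84 and 21.2 ± 0.92 CPM, a log2 fold change of -0.23 ± 0.10 (SE, edgeR FDR = 0.212). The carriers Slc25a38 of glycine, Slc25a44 of branched-chain amino acids and Slc25a45 had log2 fold changes of -0.12, 0.16 and 0.01.

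Of the 6 carriers of di- and tricarboxylates, 5 had negative log2 fold changes with a median of -0.25, and none passed the test. Slc25a1 exports citrate for the synthesis of fatty acids and sterols. It had a low of 155, a median of 189 and a high of 203 CPM in DCHP livers, against 198, 225 and 250.2 CPM in control livers. DCHP 2 and DCHP 6 reached into the control range and the other 4 lay below it, with a log2 fold change of -0.25 ± 0.08 (SE, n = 6 each, edgeR FDR = 0.130). Slc25a10, which exchanges malate and succinate for phosphate, had a low of 182, a median of 248 and a high of 303 CPM in DCHP livers, against 228, 336 and 388 CPM in control livers. The groups overlapped through control 1, the lowest control, and only DCHP 5 lay below it, with a log2 fold change of -0.41 ± 0.14 (SE, n = 6 each, edgeR FDR = 0.136). The 6 adipocyte markers summed to 12.3 to 323 CPM in DCHP livers (median 68.7 CPM) and 12.5 to 182 CPM in control livers (median 99.0 CPM). DCHP 5 and control 1 had the lowest sums of their groups, and DCHP 6 and control 5 the highest, as for Slc25a10. The part of adipocytes in the Slc25a10 values was not tested. Slc25a11, the oxoglutarate/malate carrier, averaged 62.9 ± 6.89 CPM in DCHP livers and 74.2 ± 6.91 CPM in control livers, a log2 fold change of -0.24 ± 0.09 (SE, n = 6 each, edgeR FDR = 0.159). Slc25a11 shares 189 exonic bases with Rnf167 on the opposite strand, and Rnf167 had a log2 fold change of -0.22 (edgeR FDR = 0.112). Slc25a1, Slc25a10 and Slc25a11 were negative in all 22 alternative fits, with the highest FDR at 0.272, 0.256 and 0.308. Slc25a21 and Slc25a35 had log2 fold changes of -0.12 (edgeR FDR = 0.723) and -0.39 (edgeR FDR = 0.560). Slc25a34 was positive at 0.08 (edgeR FDR = 0.893). Slc25a35 averaged only 1.04 CPM in DCHP livers and 1.38 CPM in control livers, and shares 1151 exonic bases with Rangrf on the opposite strand.

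The mitochondrial pyruvate carrier lies outside the Slc25 family and is made of Mpc1 and Mpc2, which both fell. Mpc2 averaged 120.2 ± 13.0 CPM in DCHP livers and 157 ± 16.3 CPM in control livers (SD, n = 6 each), a log2 fold change of -0.39 ± 0.09 (SE, edgeR FDR = 0.0644). Mpc1 lay between 134 and 190.0 CPM in DCHP livers and between 197 and 234 CPM in control livers, with no overlap of the groups, a log2 fold change of -0.32 ± 0.08 (SE, edgeR FDR = 0.0807), and was named after its value was seen. Of 16 other mitochondrial membrane channels and carriers tested, these included, 12 were negative with a median of -0.10, where 6041 of all 12459 tested genes were negative, and no other passed. Of all tested genes 1.56% fell at this FDR, and 1.24% were lower with no overlap. Without DCHP 5 the median of the 16 was -0.06, with 12 negative. The FDR of Mpc2 was under 0.1 in 17 of 22 alternative fits and 0.172 at most, and that of Mpc1 in 11 of 22 and 0.196 at most. The enzymes of the malate-aspartate and citrate shuttles were positive in 9 of 14 cases with none past the test, and the cytosolic aspartate transaminase Got1 averaged 427 ± 252 CPM in DCHP livers and 246 ± 85.1 CPM in control livers (log2 fold change 0.79 ± 0.34 SE, edgeR FDR = 0.222).

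The carriers of adenine nucleotides and phosphate, 6 of 8 tested, were positive in 3 cases and negative in 3, with a median of 0.02. Slc25a5 averaged 362 ± 49.0 CPM in DCHP livers and 399.9 ± 27.4 CPM in control livers (SD, n = 6 each), a log2 fold change of -0.14 ± 0.09 (SE, edgeR FDR = 0.413), and Slc25a4, the form of heart and muscle, was at 4.53 ± 1.21 and 4.08 ± 0.68 CPM. The phosphate carrier Slc25a3 averaged 255 ± 29.6 CPM in DCHP livers and 275 ± 12.5 CPM in control livers (edgeR FDR = 0.486). The ATP-Mg/phosphate carriers, which are gated by calcium, had log2 fold changes of both signs. Slc25a23 had a low of 179.8, a median of 217 and a high of 231 CPM in DCHP livers, against 229, 238 and 283 CPM in control livers. One DCHP liver reached above the lowest control and 5 lay below it, with a log2 fold change of -0.20 ± 0.08 (SE, n = 6 each, edgeR FDR = 0.186). Slc25a25 spread from 134 to 560.2 CPM in DCHP livers and from 171 to 329 CPM in control livers. DCHP 5 was the lowest and DCHP 3 the highest of all 12, and the log2 fold change of 0.47 ± 0.29 did not pass (SE, n = 6 each, edgeR FDR = 0.386). Slc25a24 averaged 1.58 ± 0.47 CPM with paternal DCHP and 1.39 ± 0.41 CPM in controls.

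The carriers of other nucleotides and cofactors, all 10 of which were tested, had a median log2 fold change of 0.03 with 6 positive. Slc25a51, the mitochondrial NAD carrier, had a low of 163, a median of 183 and a high of 203 CPM in DCHP livers, against 89.9, 141 and 195 CPM in control livers. The DCHP livers lay close together in the upper part of the wider control range, with 1 above it, and the log2 fold change was 0.35 ± 0.14 (SE, n = 6 each, edgeR FDR = 0.206). Slc25a32, the folate and FAD carrier, averaged 60.9 ± 9.62 CPM in DCHP livers and 47.6 ± 7.49 CPM in control livers, a log2 fold change of 0.35 ± 0.12 (SE, n = 6 each, edgeR FDR = 0.136). Slc25a47, the member with the highest level per kb, averaged 735 ± 85.8 and 709 ± 74.9 CPM, a log2 fold change of 0.05 ± 0.09 (SE, n = 6 each, edgeR FDR = 0.800). The pyrimidine nucleotide carriers Slc25a33 and Slc25a36 had log2 fold changes of 0.26 and 0.20, and the coenzyme A carriers Slc25a42 and Slc25a16 -0.03 and -0.16. The S-adenosylmethionine carrier Slc25a26 and the peroxisomal carrier Slc25a17 had log2 fold changes of -0.08 and 0.01, and none of these passed.

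Slc25a20, the acylcarnitine carrier of fatty acid oxidation, averaged 135 ± 14.8 CPM in DCHP livers and 138 ± 18.3 CPM in control livers (SD, n = 6 each), a log2 fold change of -0.03 ± 0.10 (SE, edgeR FDR = 0.905). The carnitine shuttle enzymes around it were positive in 4 of 6 cases, among them the rate-controlling Cpt1a at 733 ± 94.8 and 628 ± 61.8 CPM (log2 fold change 0.22 ± 0.10 SE, edgeR FDR = 0.224). Slc25a46, an outer membrane protein that acts in mitochondrial dynamics, averaged 50.3 ± 1.53 CPM in DCHP livers and 48.0 ± 2.72 CPM in control livers, a log2 fold change of 0.07 ± 0.06 (SE, n = 6 each, edgeR FDR = 0.549). Its coefficient of variation of 3.05% among DCHP livers was the lowest of the 41 members, whose median was 15.7% with paternal DCHP and 15.6% in controls. Slc25a30 had the highest coefficient of variation in both groups, at 80.9% with paternal DCHP and 62.8% in controls.

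No gene of carrier import passed the test, and 1 regulator of mitochondrial genes did. Of 13 genes of the TIM22 route, 12 had negative log2 fold changes, where 6041 of all 12459 tested genes did, with a median of -0.13 and none passed, the smallest p being that of the small chaperone Timm8a1 (log2 fold change -0.19 ± 0.08 SE, edgeR FDR = 0.250). Without DCHP 5, 9 of these 13 genes were negative, with a median of -0.10. Of 13 regulators, 7 were positive with a median of 0.01, and 1 fell at an FDR under 0.1, where 1.56% of all tested genes fell. Tfam, which packages and transcribes mitochondrial DNA, fell to 36.4 ± 3.32 CPM in DCHP livers, against 43.2 ± 1.25 CPM in control livers (SD, n = 6 each), a log2 fold change of -0.25 ± 0.07 (SE, edgeR FDR = 0.0877). Its FDR was under 0.1 in 9 of 22 alternative fits and in 2 of the 12 that left out a single liver, and was 0.187 at most. The share of mitochondrially encoded transcripts was 6.08 ± 0.98% with paternal DCHP and 6.11 ± 0.47% in controls (SD, n = 6 each), with an exact two-sided permutation p of 0.952.

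**Figure D5:**
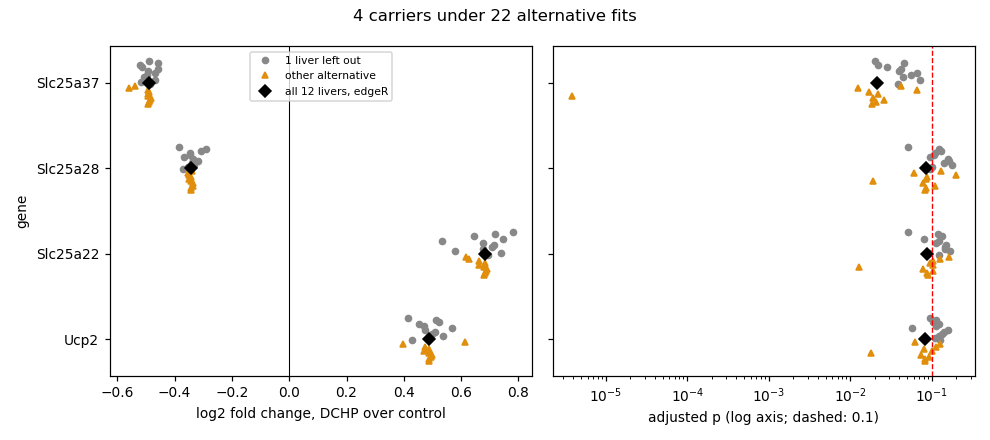
Log2 fold change of paternal DCHP over paternal control (left) and adjusted p on a log axis (right) of the 4 carriers at an FDR under 0.1, with all 12 livers (black diamonds), with 1 liver left out (grey circles) and under other alternatives (orange triangles). All points of Slc25a37 lie left of the dashed line at 0.1, while those of Slc25a28, Slc25a22 and Ucp2 lie on both sides of it and keep their sign.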

How the data were processed

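RNA-seq of liver was available for 12 libraries, 6 per group, assigned to groups by title. Estimated counts, summarised by gene symbol, were deposited by the authors as a single table with no columns of their own comparisons. The build was mm10 per the labels, while the aligner, counter, annotation and strand setting were not given in the sources used here. Estimated counts were rounded to whole numbers, filtered with filterByExpr in edgeR 4.0.16 (R 4.3.3, minimum count 10), scaled by TMM and compared with the edgeR quasi-likelihood test over all 12459 genes left, without covariates. Genes were called at a Benjamini-Hochberg FDR under 0.1 with a fold change above 1.5. The standard error was the absolute log2 fold change over the square root of F. The procedure was tested on simulated data. Libraries held 23794728 to 30445338 counts, and all 30 pairs of livers within groups differed beyond sampling noise (chi-square over its degrees of freedom 17.4 or more).

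Positions, exons and overlaps came from a GENCODE annotation of the same build, in which all 49 members matched by symbol, and upstream windows from RefSeq on GRCm38.p6. Named members were those called, those with an unadjusted p under 0.05, both mitoferrins, the Ucp genes, the member with the highest level per kb in each substrate group, those removed by the filter, and in each partner list the called genes or else the one with the smallest p. Other members are given to complete their group. One tested member enters the counts but is not reported here by name. The members and lists were chosen with earlier results of these data known. Alternatives were RLE factors, TMM after dropping the 20 genes of highest abundance, no filter, a filter of 1 CPM in 6 libraries, DESeq2 1.42.0, limma-voom (limma 3.58.1), robust dispersion, a replicate block, removal of length and GC trends (known for 99.3% of genes), other thresholds, and libraries left out.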

Additional observations from a re-analysis of the deposited data

Results flagged for a closer look

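Among the 38 groups of 6 livers checked for the named carriers, 4 held a liver far from the other 5 by Dixon's criterion, which chance alone meets in about 1 of 20 groups. All 4 were control livers. Slc25a30 stood at 90.9 CPM in control 2, against 20.9 to 35.0 CPM in the other controls, and without that liver its log2 fold change was 1.58 (edgeR FDR = 0.114). Slc25a23 stood at 283 CPM in control 1, against 229 to 246 CPM in the other controls. Slc25a20 was low in the same liver, at 103 CPM against 137 to 156 CPM. Slc25a11 stood at 87.3 CPM in control 6, against 67.1 to 74.6 CPM in the other controls.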

How the results depend on the processing

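No named gene that passed an FDR of 0.1 changed sign under any alternative. The 159 genes called over the whole table became 326 with DESeq2, 103 with length and GC trends removed, 36 at an FDR of 0.05 and 479 without the fold threshold, and ranged from 7 (without control 3) to 233 (without DCHP 6) when single livers were left out. The 1 carrier called, Slc25a22, became 0 without a low-count filter, with limma-voom, with trends removed and at an FDR of 0.05, became 4 carriers without the fold threshold, and ranged from 0 to 1 with single livers left out. It was lost without any of controls 1, 3, 4, 5 or 6 or DCHP 1, 2, 4 or 5. The 4 carriers at an FDR under 0.1 became 9 with DESeq2 and 2 without a filter, with limma-voom, with trends removed, or without DCHP 1 and DCHP 4, and ranged from 1 to 6 with single livers left out. The 0 partner genes called became 5 without the fold threshold. The cause of these shifts was not tested.

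With the replicate number as a block, 59 genes and 0 carriers were called, and 1 carrier was at an FDR under 0.1. Deviations of same-numbered livers correlated between -0.17 and 0.18, and 1 of 6 livers matched its own number best, so the numbers were not taken as a pairing. Depth limits the 8 carriers removed by the filter.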
